A study of Canis lupus familiaris with 12 samples.

Results

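The genes described here are CHAC1 (ENSCAFG00000009414), SESN2 (ENSCAFG00000011842) and SLC7A11 (ENSCAFG00000003749), which encode a glutathione-degrading enzyme, sestrin 2 and the cystine importer xCT. They were picked by the identifiers that the study's primer list gives for these symbols, and they are 3 of the 30951 Ensembl gene identifiers in the expression tables. All 3 had enough counts to be tested in every comparison.

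The data are mRNA-seq libraries of 2 cell lines of canine hemangiosarcoma, a malignant tumour of endothelial cells, sampled after 48 h with 25 mM glucose or without glucose (0 mM), with 3 libraries in each of the 4 groups. The lines are called HU-HSA-2 and HU-HSA-3, both came from splenic tumours, and all groups grew in DMEM with fetal bovine serum and penicillin-streptomycin. Each line stands for the tumour of 1 dog, so a difference between the lines is a difference between these cultures. The treatment label mentions both 4 and 48 h, and the library names give 48 h for all 12 libraries.

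Cells hold cystine and glutathione in balance through import, synthesis and breakdown. SLC7A11 exchanges glutamate for extracellular cystine, which supplies the cysteine for glutathione, and CHAC1 cleaves glutathione inside the cell. SESN2 is a stress-induced protein that restrains mTORC1 signalling and supports antioxidant defence. All 3 genes are known targets of ATF4, the transcription factor of the integrated stress response, and CHAC1 is also a target of DDIT3 (CHOP), itself induced by ATF4.

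Library totals lay between 10406166 and 13405159 expected counts. The endothelial markers PECAM1 and KDR were at 329.82 TPM or more and at 29.06 TPM or more in all 12 libraries, while VWF, another defining marker, reached at most 0.66 TPM. Replicate 1 of starved HU-HSA-3 stood apart from the other 2 libraries of its group. The biological coefficient of variation in the HU-HSA-3 fit was 9.22% with this library and 4.64% without it. The values of the 3 genes without it are given with the description of this library. The study's methods state that each line was cultured in triplicate at each glucose concentration, so the p-values measure the spread between parallel cultures of 1 line. In bulk RNA, fewer cells that express a gene and less RNA per cell cannot be told apart.

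CHAC1 had the widest range of the 3 genes over the 4 groups. In HU-HSA-3 with glucose it was at 3.54, 3.55 and 2.71 CPM (CPM is a count relative to the library total, with totals adjusted by TMM over all 12 libraries; values are in the order of replicates 1 to 3), from 28 to 39 counts per library. The starved libraries of this line held 71.1, 67.5 and 70.6 CPM. CHAC1 was therefore lowest and highest in the same line, with the HU-HSA-2 groups between these ends. In HU-HSA-2 its level was 28.0, 31.6 and 29.2 CPM with glucose. Without glucose the HU-HSA-2 libraries were at 21.5, 24.9 and 19.3 CPM. No library of one group overlapped with any library of another, so the order from low to high was HU-HSA-3 with glucose, starved HU-HSA-2, HU-HSA-2 with glucose and starved HU-HSA-3. The group means were 3.27 ± 0.483, 21.9 ± 2.81, 29.6 ± 1.86 and 69.7 ± 1.96 CPM in that order (SD, n = 3).

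SLC7A11 followed another order in HU-HSA-2 and the same extremes in HU-HSA-3. The HU-HSA-3 libraries with glucose were at 4.35, 4.24 and 4.65 CPM, from 43 to 48 counts. The HU-HSA-2 libraries with glucose were at 15.7, 13.9 and 16.4 CPM, and their starved counterparts at 19.4, 20.1 and 17.3 CPM. The starved HU-HSA-3 libraries were the highest and the most spread, at 28.0, 55.5 and 46.0 CPM. The 4 groups did not overlap in CPM, with means of 4.41 ± 0.207, 15.4 ± 1.29, 18.9 ± 1.46 and 43.2 ± 14.0 CPM from low to high (SD, n = 3). The shares of all genes without overlap given for CHAC1 apply here too. In the deposited TPM values the HU-HSA-2 groups touched, with the highest library with glucose at 14.66 TPM and the lowest starved library at 14.65 TPM.

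SESN2 was low in 3 of the groups and raised in 1. It was at 4.73, 6.33 and 5.57 CPM in HU-HSA-2 with glucose and at 4.72, 5.94 and 3.42 CPM in HU-HSA-2 without it. In HU-HSA-3 with glucose it was at 4.90, 4.34 and 5.42 CPM. These 3 groups overlapped with one another, and their order could not be read beyond the spread of the libraries. Starved HU-HSA-3 libraries lay above all others, at 24.4, 35.4 and 32.3 CPM. The means were 5.54 ± 0.797, 4.69 ± 1.26, 4.89 ± 0.539 and 30.7 ± 5.63 CPM for HU-HSA-2 with and without glucose and HU-HSA-3 with and without glucose (SD, n = 3).

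**Figure D1:**
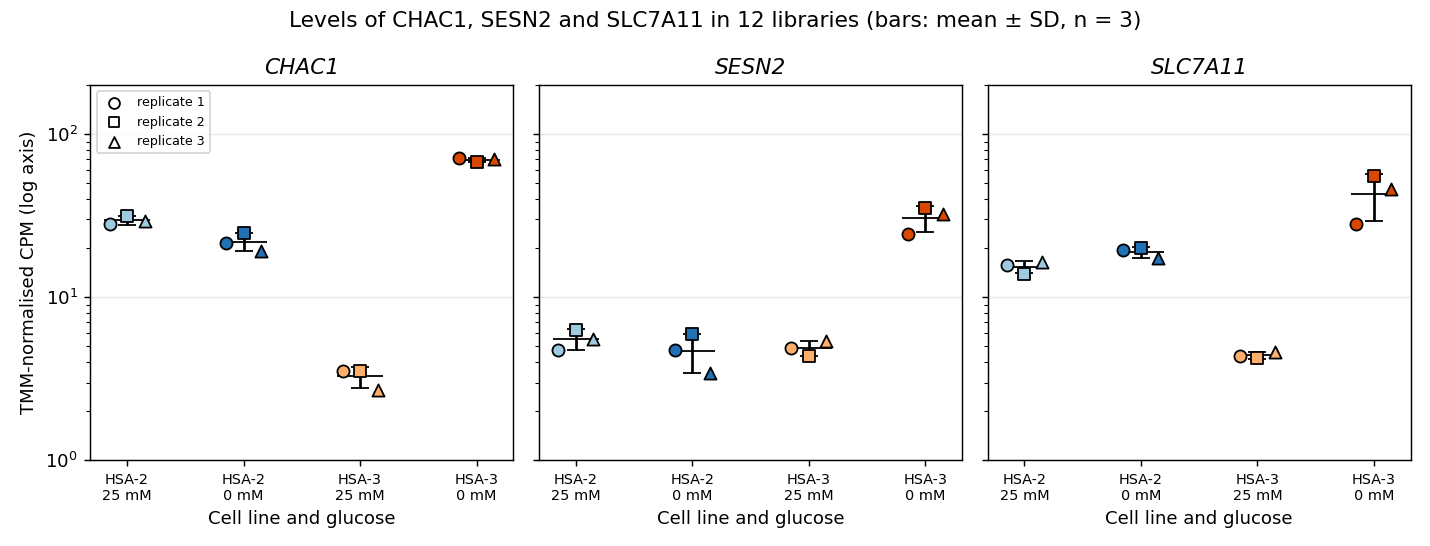
TMM-normalised CPM of CHAC1, SESN2 and SLC7A11 (log axis) in each of the 12 libraries, by cell line (axis labels leave out the HU prefix) and glucose, with horizontal bars for the mean and whiskers for the SD of 3 replicates. CHAC1 and SLC7A11 are lowest in HU-HSA-3 with glucose (means 3.27 and 4.41 CPM) and highest in starved HU-HSA-3 (69.7 and 43.2 CPM), and replicate 1 is the lowest starved HU-HSA-3 library of SESN2 and SLC7A11.

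Levels were compared between genes in TPM, which is scaled for gene length. CHAC1 was the highest and SESN2 the lowest of the 3 genes in all 12 libraries. In HU-HSA-2 with glucose CHAC1 averaged 43.9 ± 3.54 TPM, SLC7A11 13.7 ± 0.962 TPM and SESN2 4.02 ± 0.646 TPM (SD, n = 3). In HU-HSA-3 with glucose the 3 genes lay close together, at 4.40 ± 0.627, 3.41 ± 0.070 and 3.05 ± 0.335 TPM (SD, n = 3). Starvation of HU-HSA-3 moved CHAC1 from above 38.4% to above 88.2% of the genes whose mean TPM exceeded 0. The matching positions were 36.0% and 72.6% for SLC7A11 and 35.0% and 61.1% for SESN2. In HU-HSA-2 CHAC1 stood above 78.0% of the genes with glucose and above 72.7% without it. The lowest values rest on few counts, and the counting error alone was 17.1% of the mean for CHAC1 in HU-HSA-3 with glucose, against an observed coefficient of variation of 14.8%.

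The baseline comparison asks whether the lines already differed in these genes when glucose was supplied. At 25 mM CHAC1 was 9.04-fold lower in HU-HSA-3, relative to the level in HU-HSA-2 (log2 fold change -3.18, SE 0.13, adjusted p = 1.85e-12). SLC7A11 was 3.47-fold lower (log2 fold change -1.79, SE 0.23, adjusted p = 2.38e-06). SESN2 did not pass the test, with a log2 difference of -0.19 (95% interval -0.65 to 0.28, adjusted p = 0.446), and its libraries overlapped. The adjusted p-values of all 5 comparisons are those of edgeR's quasi-likelihood test, adjusted by Benjamini-Hochberg over the genes tested. Thus 2 of the 3 genes were lower in HU-HSA-3, in a comparison that called 74.3% of 12233 genes, 38.2% as lower in HU-HSA-3, and in which 80% had no overlap between the 3 and 3 libraries. A call alone sets a gene apart little here. By size, CHAC1 ranked 657 and SLC7A11 1314 from the lowest of the 12233 log2 fold changes.

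The transcription factors ATF4 and DDIT3 did not pass the test between the lines at baseline. ATF4 was at 599 ± 13.4 CPM in HU-HSA-2 and 624 ± 26.8 CPM in HU-HSA-3 with glucose (SD, n = 3), a log2 difference of 0.06 (95% interval -0.07 to 0.19, adjusted p = 0.383). DDIT3 was at 21.2 ± 0.742 and 21.4 ± 1.53 CPM (SD, n = 3), a log2 difference of 0.01 (95% interval -0.18 to 0.21, adjusted p = 0.896). The sign of both differences turned under other scalings, and ATF4 passed the test as higher in HU-HSA-3 when each library's trend with gene length was removed (log2 difference 0.26, adjusted p = 0.000211). Of the 4 other genes of the pathway in the primer list, 2 were called lower in HU-HSA-3 and none was called higher. The 2 were ASNS (asparagine synthetase, log2 fold change -0.34) and MTHFD2 (mitochondrial folate enzyme, log2 fold change -0.49). Over all 12233 genes, 38.2% were called lower and 74.3% in either direction, so these calls set the genes apart little. The call of ASNS was lost with the length trend removed (log2 fold change -0.11, adjusted p = 0.117). The median of these 4 genes was -0.16, beside -0.03 over all genes tested.

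Without glucose the order of the lines turned for CHAC1 and SLC7A11. At 0 mM CHAC1 was 3.18-fold higher in HU-HSA-3 (log2 fold change 1.67, SE 0.10, adjusted p = 1.03e-10) and SLC7A11 2.29-fold higher (log2 fold change 1.19, SE 0.17, adjusted p = 7.76e-06). SESN2 was 6.54-fold higher (log2 fold change 2.71, SE 0.18, adjusted p = 6.09e-10). The 3 genes were thus all called higher in HU-HSA-3, where 36.1% of the 12233 genes were called higher, 73.2% were called in either direction and 72.6% had no overlap. SESN2 had the largest difference of the 3 between the starved lines, at rank 231 from the highest, with CHAC1 at rank 462 and SLC7A11 at rank 901. The 4 pathway genes were all higher in starved HU-HSA-3, from a log2 fold change of 0.51 for MTHFD2 to 2.47 for DDIT3. Their median was 1.33, against -0.01 over all genes.

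A turn of this kind was rare among the genes tested. Of 12233 genes, 52 (0.425%) were called lower in HU-HSA-3 at 25 mM and higher in HU-HSA-3 at 0 mM, and CHAC1 and SLC7A11 were among them. Both stayed in this group under every alternative that was run, in which it held 36 to 65 genes. The opposite turn was found for 23 genes (0.188%). SESN2 was not among the 52, since its baseline difference was not called.

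In HU-HSA-2 CHAC1 alone of the 3 genes was called at 48 h. The study's RT-qPCR time course had stress-response genes of this line, SESN2 among them, peak 4 h after glucose was withdrawn. The libraries here are all from 48 h, so a rise that had ended by then would not be seen. CHAC1 fell to 0.737 of its level with glucose (log2 fold change -0.44, SE 0.10, adjusted p = 0.0117), and its libraries did not overlap. This call was lost without replicate 2 of the libraries with glucose (log2 fold change -0.39, adjusted p = 0.0684) and when limma with a single prior variance was run on TPM (adjusted p of 0.0871 and 0.108 for pseudocounts of 1 and 0.1). SLC7A11 had a log2 difference of 0.30 (95% interval 0.07 to 0.53) whose adjusted p of 0.0845 missed the threshold, although its libraries did not overlap in CPM. SESN2 had a log2 difference of -0.25 (95% interval -0.71 to 0.22, adjusted p = 0.499), with overlapping libraries. So 1 of the 3 genes was called, in a comparison that called 13.2% of 12035 genes, 5.7% as lower, and in which 32.9% of the genes had no overlap between the groups. Of the 4 pathway genes, DDIT3 was called higher, ATF4 and ASNS were called lower and MTHFD2 was not called, with a median log2 fold change of -0.15 beside -0.01 over all genes. For ATF4 the log2 fold change was -0.22, and -0.24 with limma, where the call was lost with a single prior variance (adjusted p = 0.105 and 0.115) and held with a variance trend.

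In HU-HSA-3 all 3 genes rose without glucose. The rise was 21.2-fold for CHAC1 (log2 fold change 4.41, 95% interval 4.15 to 4.68, adjusted p = 6.22e-08) and 9.78-fold for SLC7A11 (log2 fold change 3.29, 95% interval 2.73 to 3.86, adjusted p = 6.02e-05). For SESN2 it was 6.28-fold (log2 fold change 2.65, 95% interval 2.28 to 3.03, adjusted p = 2.00e-05). They ranked 2, 4 and 9 from the highest of 11089 log2 fold changes in a comparison that called 5.65% of the genes, 3.61% as higher, and in which 30% of the genes had no overlap between the groups, as these 3 had none. The number of genes called was 626, and it ranged from 231 to 2027 with single libraries left out (2027 without replicate 1 of the starved libraries) and was 1043 with the RT-qPCR reference genes as scaling, of which 22.2% were higher. The calls of the 3 genes held in all of these fits. DDIT3 ranked 7, between SLC7A11 and SESN2, with a log2 fold change of 2.91. All 4 pathway genes rose, with a median log2 fold change of 1.02 beside 0.00 over all genes, and ATF4 itself by 1.13 on the log2 scale.

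**Figure D2:**
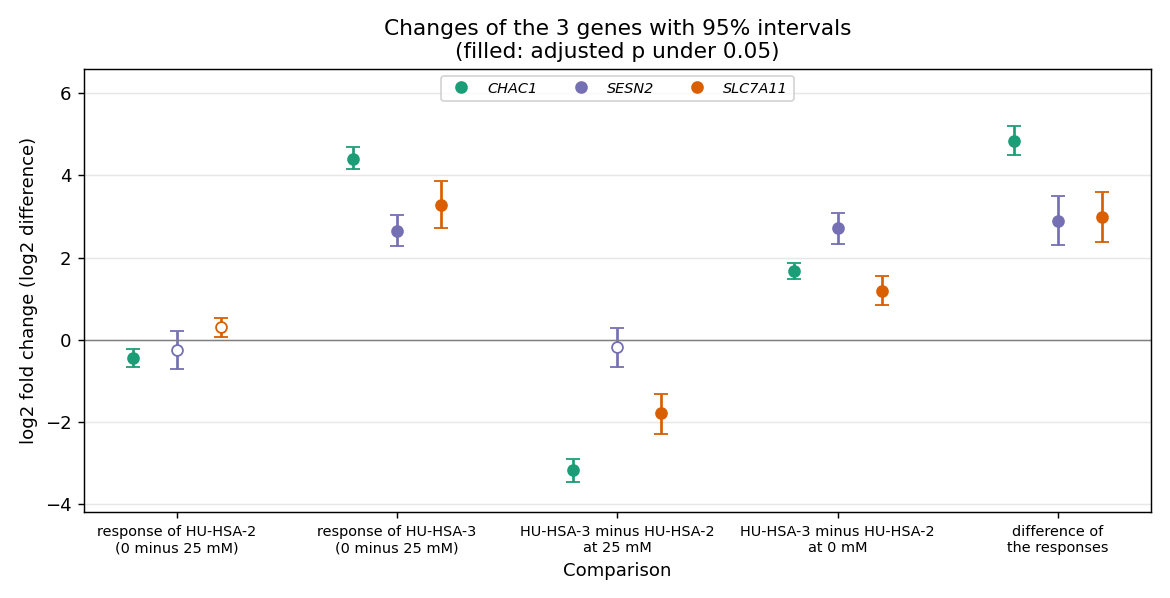
Log2 fold changes of CHAC1, SESN2 and SLC7A11 in the 5 comparisons (vertical axis) with 95% intervals, filled where the adjusted p was under 0.05. CHAC1 runs from -3.18 between the lines at 25 mM to 1.67 at 0 mM, and SESN2 is open both between the lines at 25 mM (-0.19) and in the response of HU-HSA-2 (-0.25).

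The difference between the responses of the lines at 48 h was tested directly in the fit of all 12 libraries. It was 4.85 on the log2 scale for CHAC1 (SE 0.17, adjusted p = 7.88e-12), the highest of all 12233 genes. For SLC7A11 it was 2.99 (SE 0.29, adjusted p = 3.53e-06, rank 32) and for SESN2 2.90 (SE 0.28, adjusted p = 4.36e-06, rank 38). All 3 genes were called, where 4.73% of the genes were called and 2.43% with a higher response in HU-HSA-3. This contrast, the responses and the comparisons between the lines use the same libraries and are not independent of one another. The 4 pathway genes were called in the same direction, with differences of 1.34 for ATF4, 2.45 for DDIT3, 1.59 for ASNS and 1.0 for MTHFD2.

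**Figure D3:**
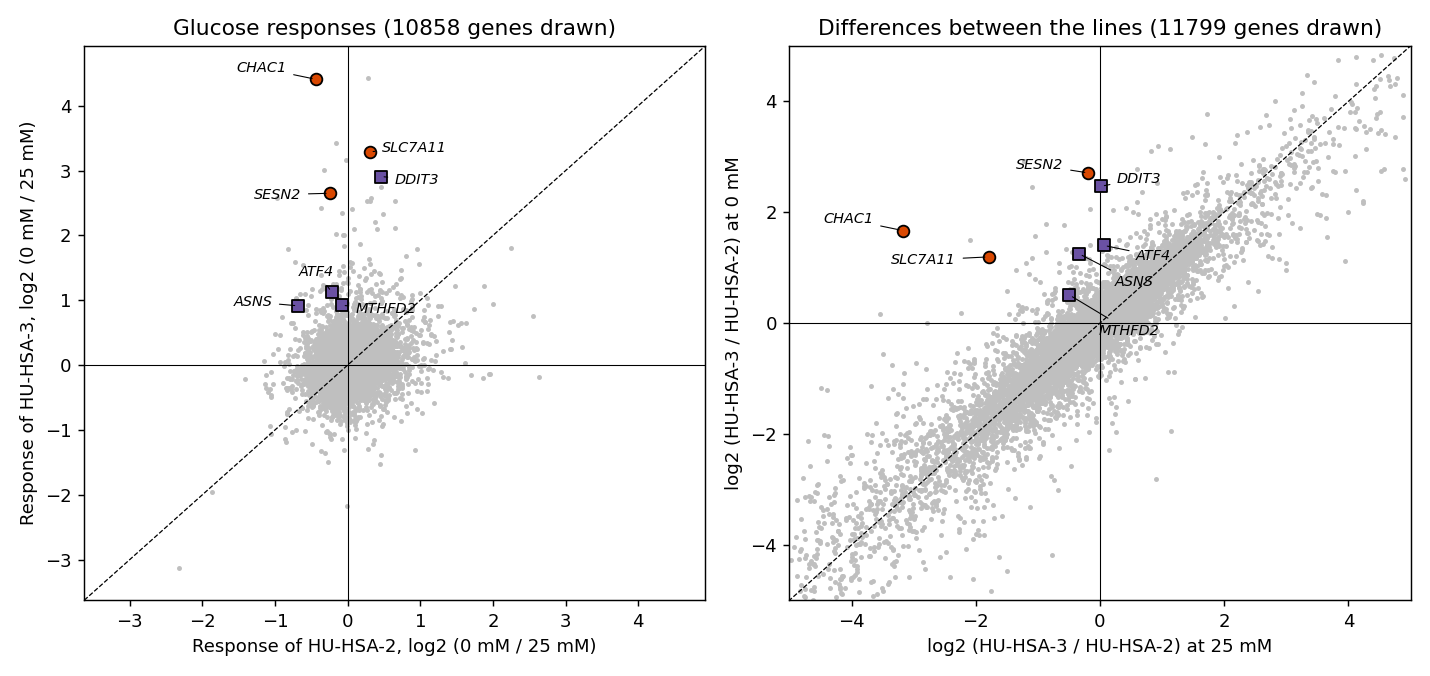
Left, the log2 response of each gene to 0 mM glucose in HU-HSA-2 (horizontal) and HU-HSA-3 (vertical) for 10858 genes; right, the log2 difference between the lines at 25 mM (horizontal) and 0 mM (vertical) for 11799 genes, with 434 genes beyond the axes of ±5 not drawn. Circles are CHAC1, SESN2 and SLC7A11, squares the 4 other pathway genes, grey points the remaining genes and dashed lines equality. In the right panel CHAC1 (-3.18 and 1.67) and SLC7A11 (-1.79 and 1.19) lie at the upper left.

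The ratio of one gene to another within a library does not depend on the scaling of that library. CHAC1 was 10.3 to 12.3 times SESN2 in TPM in HU-HSA-2 with glucose but 1.09 to 1.78 times in HU-HSA-3 with glucose. In starved HU-HSA-3 it was 4.04 to 6.09 times SESN2, still below the range of 8.69 to 11.7 in starved HU-HSA-2. The ranges of these groups did not overlap, except those of the 2 HU-HSA-2 groups. CHAC1 over SLC7A11 lay between 2.93 and 3.75 in HU-HSA-2 with glucose and between 1.83 and 2.05 without. In HU-HSA-3 it lay between 1.05 and 1.43 with glucose and between 2.06 and 4.23 without. SESN2 over SLC7A11 was between 0.240 and 0.360 in HU-HSA-2 with glucose and between 0.157 and 0.236 without. It was between 0.805 and 0.971 in HU-HSA-3 with glucose and between 0.509 and 0.694 without. On normalised counts its log2 ratio differed by -0.55 (HU-HSA-2) and -0.59 (HU-HSA-3).

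The log2 ratios of normalised counts (log2 CPM), not of TPM, were tested in 12 two-sided exact permutation tests. In 3 against 3 libraries the smallest p possible is 0.10, so no ratio could pass 0.05, and the smallest value after Benjamini-Hochberg adjustment was 0.12. On this scale the groups overlapped for CHAC1 over SESN2 in the response of HU-HSA-2 (log2 difference -0.18, exact p = 0.30) and for CHAC1 over SLC7A11 between the starved lines (log2 difference 0.54, exact p = 0.20), whose TPM ranges above did not. The latter was 0.25 without replicate 1 of starved HU-HSA-3, and 0.25 to 0.77 over single libraries left out.

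**Figure D4:**
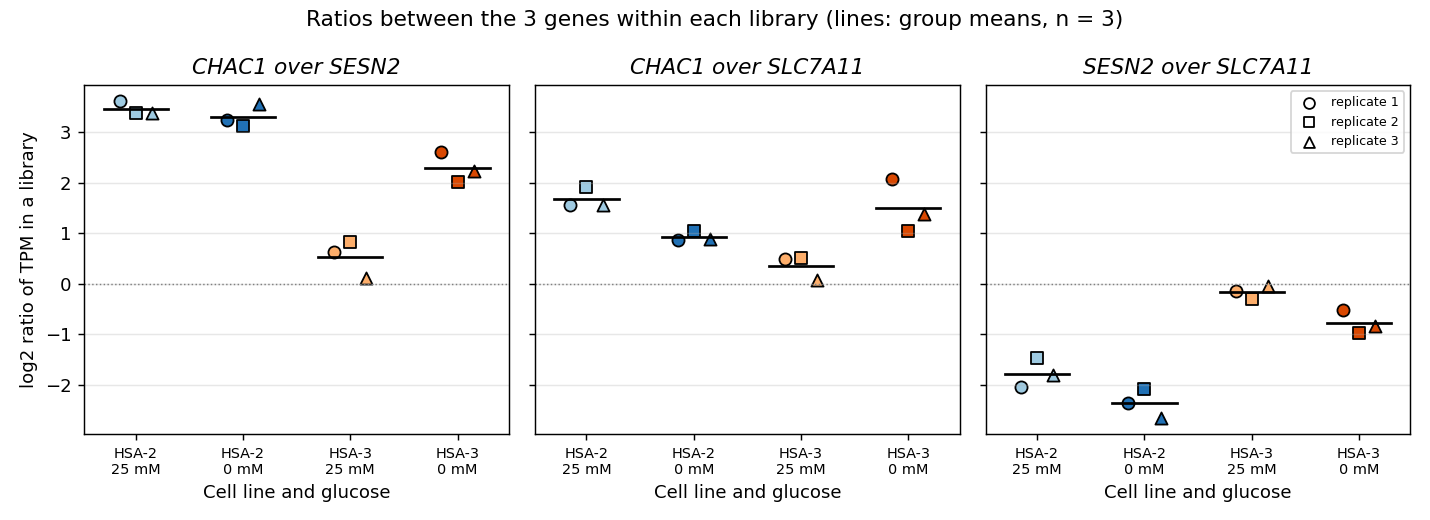
Log2 ratio of the TPM values of each pair of genes within each library, by cell line and glucose, with lines for the mean of 3 replicates. CHAC1 over SLC7A11 is lower in starved HU-HSA-2 (mean 0.93) than with glucose (1.67) and higher in starved HU-HSA-3 (1.498) than with glucose (0.36), and every SESN2 over SLC7A11 point is below 0.

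The pattern of a gene was described by its 4 group means of log2 CPM after subtracting their average, and 2 genes were compared by the root mean square difference of these 4 values. Of the 12232 other genes tested, SLC7A11 had the pattern most like CHAC1, at a distance of 0.53 log2 units, and it also ranked first in TPM (0.52). SESN2 ranked 48 from CHAC1 in CPM and 21 in TPM. For SLC7A11 the closest was ENSCAFG00000029405, an identifier without a symbol here, at 0.19, but its level was at most 3.53 CPM as a group mean. In TPM another identifier was closest to SLC7A11. In CPM CHAC1 ranked 7 and SESN2 89 from SLC7A11, against 7 and 52 in TPM. SESN2 stood nearest to ENSCAFG00000032469 at 0.25, which rose from 21.1 ± 3.30 to 122 ± 5.87 CPM in HU-HSA-3 (SD, n = 3), and another identifier was closest in TPM. In CPM DDIT3 ranked 3 from SESN2 at 0.27 and ATF4 ranked 22, ahead of SLC7A11 at rank 225 and CHAC1 at rank 6686. DDIT3 was also ahead of SESN2 in CPM when ranked from CHAC1 (rank 36) and from SLC7A11 (rank 55). In TPM it was behind SESN2 in both, at ranks 24 and 65. ATF4 ranked 235 from CHAC1 and 158 from SLC7A11 in CPM. With 4 points per gene these distances are descriptions.

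Replicate 1 of starved HU-HSA-3 touched the genes unequally. It differed from the mean of the other 2 libraries by -0.85 for SLC7A11, by -0.46 for SESN2 and by 0.04 for CHAC1 in log2 CPM. The coefficient of variation of SLC7A11 in that group was 32.4%, where counting error alone gives 4.66%, against 2.81% and 3.69% for CHAC1. In this library short genes ran high and long genes low, by a median of 0.23 for the shortest 20% and -0.22 for the longest 20% of genes in log2 CPM. The trend was 0.00 at the length of SLC7A11, -0.03 at that of SESN2 and 0.09 at that of CHAC1. Without this library the rise in HU-HSA-3 was 3.52 for SLC7A11, 2.78 for SESN2 and 4.39 for CHAC1 on the log2 scale. Between the starved lines the log2 fold changes without it were 1.42, 2.84 and 1.66 in the same order, and all 6 calls held (adjusted p at most 2.24e-10). The difference of the responses without it was 3.21 for SLC7A11, 3.03 for SESN2 and 4.83 for CHAC1, and these calls held too. The mean level of SLC7A11 in starved HU-HSA-3 was 50.7 CPM in the other 2 libraries, that of SESN2 33.8 CPM and that of CHAC1 69.0 CPM. The ratio of CHAC1 to SLC7A11 in TPM was 4.23 in replicate 1 and 2.06 and 2.59 in the others, and that of CHAC1 to SESN2 was 6.09 in replicate 1 and 4.04 and 4.67 in the others. SESN2 over SLC7A11 was 0.694 in replicate 1 and 0.509 and 0.555 in the others. In log2 ratios of normalised counts without replicate 1, the response of HU-HSA-3 was 0.87 for CHAC1 over SLC7A11, 1.59 for CHAC1 over SESN2 and -0.71 for SESN2 over SLC7A11. Between the starved lines these ratios were 0.25, -1.18 and 1.43 in the same order.

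The effective length behind the TPM values, relative to the other genes of a library, changed little between groups. Group means ran from 0.460 to 0.477 for CHAC1, from 0.973 to 0.993 for SESN2 and from 0.788 to 0.803 for SLC7A11.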

How the data were processed

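Poly(A) mRNA libraries, made with a directional kit, were mapped by the authors to CanFam3.1 with STAR and quantified with RSEM. The authors deposited expected counts, which are not normalised, and TPM values, which allow for gene length and library total, with 1 table for each line and unit. The submitters' processing notes also name edgeR 3.42.0. Versions of STAR and RSEM, the annotation and the strand setting are not given in the sources used here.

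Expected counts were rounded, filtered with filterByExpr, normalised by TMM and tested with the quasi-likelihood test of edgeR 4.0.16 in R 4.3.3, with Benjamini-Hochberg adjustment and a threshold of 0.05. Glucose responses were fitted per line (12035 and 11089 genes). Levels, line comparisons and the difference of responses used all 12 libraries (12233 genes). The SE is the unshrunk log2 fold change over the square root of F, and 2 was the prior count of log2 CPM. The script was tested on simulated data. Alternatives used DESeq2 1.42.0, limma 3.58.1 on log2(TPM + 1) and log2(TPM + 0.1) where 3 libraries reached 1 TPM, other scalings and filters, the replicate number as a block, and each library left out. Of these, removal of the gene length trend (loess, span 0.3), limma with a variance trend, and ratios with a library left out were chosen after seeing the data.

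Chi-square per degree of freedom was 2.54 to 20.7 for the counts of the 12 pairs of replicates, and every library was kept as 1 sample.

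The genes named are the 3 genes, the 4 other pathway genes (ATF4, DDIT3, ASNS, MTHFD2) and 3 endothelial markers of the study's primer list, and the genes with the most similar pattern. Members and lists were chosen with earlier results of these data known. No identifier matched the RefSeq gene table (0 matches), so wider glutathione and other cell type lists were not analysed here.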

Additional observations from a re-analysis of the deposited data

Results flagged for a closer look

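At 48 h the glucose responses of the lines differed for the 3 genes. This rests on the direct test of that difference in edgeR's quasi-likelihood fit of all 12 libraries. The log2 difference, HU-HSA-3 minus HU-HSA-2, was 4.85 for CHAC1, 2.90 for SESN2 and 2.99 for SLC7A11. The same test was passed by ATF4 (1.34), DDIT3 (2.45), ASNS (1.59) and MTHFD2 (1.0). CHAC1 was called in opposite directions in the lines, lower without glucose in HU-HSA-2 and higher in HU-HSA-3, but the call in HU-HSA-2 was lost without replicate 2 at 25 mM (adjusted p = 0.0684) and with limma with a single prior variance on TPM (adjusted p = 0.0871 and 0.108). The cause of these differences was not tested.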

How the results depend on the processing

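Of 336 values recomputed for the 5 comparisons of CHAC1, SESN2 and SLC7A11, 332 kept their direction and their side of the threshold. CHAC1 in HU-HSA-2 lost its call with limma on log2(TPM + 1) (-0.46) and on log2(TPM + 0.1) (-0.47) but kept it with a variance trend in limma, and over single libraries left out it ranged from -0.54 to -0.35, with the call lost only without replicate 2 at 25 mM. SESN2 between the lines at 25 mM turned to 0.0459 with the length trend removed, which moved the median of all genes from -0.03 to 0.17. TPM moved that median to -0.16 and -0.18 for the pseudocounts of 1 and 0.1, and upper-quartile scaling to -0.12. There ATF4 was -0.0274 with upper-quartile scaling, -0.00474 with at least 10 counts in every library and -0.111 with all 4 limma fits. DDIT3 was -0.0739 with upper-quartile scaling, -0.0369 with the RT-qPCR reference genes as scaling, -0.0512 with at least 10 counts, and -0.0985 and -0.101 with limma on log2(TPM + 1) and log2(TPM + 0.1), with or without a variance trend. It ranged from -0.00854 to 0.0750 over single libraries left out, and none of these passed the test.

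The count of genes called in HU-HSA-2 was 1583, and 513 and 437 with limma, 870 and 845 with limma and a variance trend, and 907 to 1582 over libraries left out, with 920 and 907 without replicates 2 and 3 at 25 mM. In HU-HSA-3 it was 626, and 1043 with reference-gene scaling (median of all genes -0.13), 297 and 254 with limma, 384 and 366 with a variance trend, 1153 with all 12 libraries in one fit and 1027 without the length trend. Over libraries left out it ranged from 231 to 2027, with 2027 and 319 without replicates 1 and 2 at 0 mM and 236, 256 and 231 without replicates 1, 2 and 3 at 25 mM. The share called higher in HU-HSA-3 was 63.9%, and 22.2% with reference-gene scaling, 51.6% and 52.5% with limma and a variance trend, and in HU-HSA-2 it was 56.7%, and 33.2% with reference-gene scaling. Between the lines the share higher in HU-HSA-3 was 48.6% at 25 mM and 49.3% at 0 mM, 38.4% to 38.7% and 34.7% to 34.9% with the limma fits, and 59.3% and 60.5% without the length trend. For the difference it was 51.3%, and 37.9% with reference-gene scaling. The count for the difference of responses was 579, and 319 and 370 with limma on log2(TPM + 0.1) without and with a variance trend.

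Relative to the mean of the 4 groups, TPM moved the log2 level of CHAC1 to 0.70 in HU-HSA-2 with glucose and 1.69 in starved HU-HSA-3, and that of SLC7A11 to 0.14 and -1.87 in the groups with glucose. Without replicate 1 of starved HU-HSA-3 the last was -1.82, and over all libraries left out it ranged from -1.82 to -1.70. The count of genes with the turn opposite to that of CHAC1 was 23, and 35 without the length trend. The nearest distance in TPM was 0.21 for SESN2 and 0.27 for SLC7A11. Same-numbered libraries within a line correlated between -0.05 and 0.11 in their deviations. Whether they were processed together is not stated and cannot be read from these values. With the replicate block the counts were 1452, 713, 9073, 8925 and 502 for the responses, the lines at 25 and 0 mM and the difference, CHAC1 in HU-HSA-2 was -0.44 (adjusted p = 0.00773), and no call of the 3 genes changed. The cause of the values named was not tested. Counts were low for the 3 genes in HU-HSA-3 with glucose, at 28 to 56 per library, and for SESN2 in HU-HSA-2, at 48 to 88. The coefficient of variation of SESN2 in starved HU-HSA-2 was 26.9%, where counting error alone gives 12.5%.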
